A study of Homo sapiens with 6 samples.

Results

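Heat shock protein genes of the cytosol and mitochondria were compared between control and ALKBH3 knockdown cells of 92.1, an established human ocular melanoma line. They were taken by gene symbol: the HSPA, HSPB, HSP90A, HSPD1, HSPE1 and HSPH1 genes, the J-domain genes DNAJA, DNAJB and DNAJC, and the chaperonin subunit genes CCT2 to CCT8. HSPA5 and DNAJB9 were left out by the rule. This gave 66 genes under 65 symbols, out of 11387 genes with a listed transcript. All 66 are annotated as protein coding, 65 averaged 1 FPKM or more across all 6 libraries and entered the test, and HSPA1L, a testis-enriched HSP70, did not. The symbol rule does not sort by compartment, so J-proteins of the endoplasmic reticulum such as DNAJB11 are included. HSPA14 stands under 2 gene identifiers, and DNAJC25-GNG10 is a readthrough gene over DNAJC25, so the division of reads within each pair is uncertain.

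The control group, labelled NC, has 3 libraries of wild-type genotype, and the group labelled shALKBH3 has 3 libraries with ALKBH3 knocked down. All 6 come from the same line under the same culture conditions, per the labels. The labels do not say whether the control cells carry a hairpin, whether the knockdown cells are a clone or a pool, or whether replicate libraries stand for separate cultures. The p-values therefore reflect library-to-library spread, which may be technical. ALKBH3, a demethylase of alkylated DNA and of 1-methyladenosine in RNA, was at 10.5, 10.6 and 9.19 FPKM in NC replicates 1, 2 and 3. It was at 3.29, 3.60 and 4.24 FPKM in shALKBH3 replicates 1, 2 and 3, so the knockdown libraries all lay below the controls (log2 -1.24, SE 0.12, limma adjusted p = 0.0079). FPKM is the number of fragments on a transcript scaled by its length and by the sequencing depth, and was deposited per transcript. Listed FPKM summed to between 340522 and 360889 in NC and between 326408 and 333506 in shALKBH3. Of 7 melanocyte markers, MITF alone has a listed transcript (summed level 3.29 to 9.53 FPKM in NC and 10.3 to 14.0 in shALKBH3), so the pigment genes do not identify the line in these tables. Of the markers of other cell types, 4 of 6 fibroblast genes (24.1 to 39.9 FPKM in NC, 24.2 to 29.3 in shALKBH3) and 1 of 5 immune genes, CD68 (14.7 to 18.9 and 33.8 to 37.4 FPKM), were listed. No endothelial or epithelial marker was listed. The part of these markers in the results below was not tested, and in bulk RNA fewer cells and less RNA per cell cannot be told apart.

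Heat shock proteins are molecular chaperones that bind unfolded proteins. HSP70 proteins bind and release short hydrophobic stretches in a cycle driven by ATP. J-domain proteins bring clients and start ATP hydrolysis, and HSP110 proteins and BAG-domain proteins release ADP. HSP90 acts later, on near-native clients such as kinases and steroid receptors. Chaperonins, HSPD1 with HSPE1 in mitochondria and the CCT ring in the cytosol, fold proteins inside a closed chamber, and small heat shock proteins hold unfolded chains without ATP. The stress-induced members are switched on by the transcription factor HSF1, which binds heat shock elements.

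The knockdown libraries differed little from the controls in these genes. CCT4, which encodes the delta subunit of the CCT ring, fell, and was the 1 member of 65 past an adjusted p of 0.05 (limma on log2(FPKM + 1), Benjamini-Hochberg over all 10475 genes tested), with 0 members higher. Over all genes tested 1.76% were called in either direction, 1.28% higher and 0.477% lower, so 1 of 65 is near the background. At an unadjusted p under 0.05, 8 members differed, 4 higher and 4 lower, which is 12.3% of them, where 17.1% of all genes did (8.98% higher and 8.15% lower). In 6 members the 3 knockdown libraries lay above all controls (background 12.9%) and in 7 below (background 12%). That is 20.0% of the members, against 24.9% of all genes, so separated groups were not more frequent here than in the whole table. The median log2 difference of the 65 members was -0.06, with 27 positive and 38 negative, against -0.01 over all genes tested. Log2 differences are throughout shALKBH3 minus NC, and every fold is on the log2(FPKM + 1) scale, which understates the change of genes at a few FPKM.

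**Figure D1:**
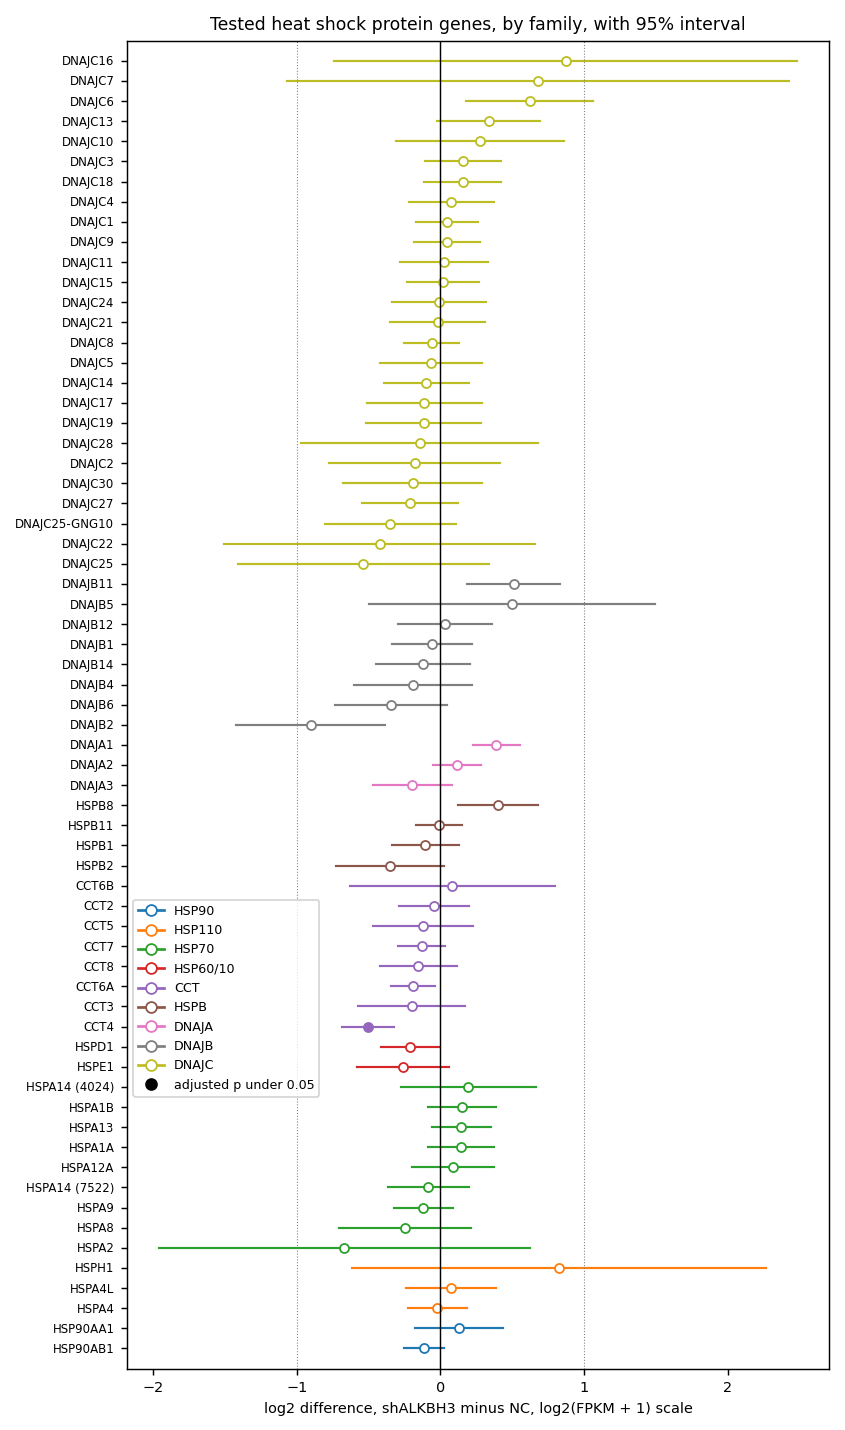
Log2 difference (shALKBH3 minus NC, log2(FPKM + 1) scale, horizontal axis) of each of the 65 tested genes, coloured by family, with bars for the 95% interval from limma and dotted lines at differences of 1 and -1. The filled point, CCT4, is the member past the threshold, and the intervals of 56 of the 65 lie between the dotted lines; the 2 HSPA14 entries are marked by the last digits of their identifiers.

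For 56 of the 65 tested members the 95% interval of the log2 difference lay between -1 and 1, which is a change of less than 2-fold on this scale. The other 9 were DNAJB2, DNAJB5, DNAJC6, DNAJC7, DNAJC16, DNAJC22, DNAJC25, HSPA2 and HSPH1, whose intervals reached at least one of these bounds. For these 9 a change of 2-fold lies within the interval, and a p above the threshold does not show equal levels. Over all 10475 genes tested the interval lay between -1 and 1 for 8672, so such intervals were not particular to these members.

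The members differed far more among themselves in level than between the groups. HSP90AB1, HSPA8, HSP90AA1, HSPB1 and HSPD1 together held 53.6% of the members' summed FPKM, averaged over the 6 libraries. The fifth of them averaged 264 FPKM, and the next member 152 FPKM. All members together made up 1.05%, 1.09% and 1.08% of listed FPKM in the control libraries. The knockdown libraries gave 1.02%, 1.15% and 1.06%, so the share overlapped between the groups.

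Summed by family in FPKM as deposited, 3 families did not overlap between the groups, and 1 of them, DNAJA, stayed separated when the sums were taken as a share of all listed FPKM, which is lower in the knockdown libraries. The CCT genes summed to 770.0, 789 and 783 FPKM in NC replicates 1, 2 and 3 and to 646, 704 and 695 FPKM in shALKBH3. The pair HSPD1 and HSPE1 summed to 363, 369 and 396 FPKM in NC and 307, 335 and 325 FPKM in shALKBH3. The 3 DNAJA genes ran the other way, with 155, 155 and 154 FPKM in NC and 180.2, 194 and 187 FPKM in shALKBH3. As a share of listed FPKM, CCT was at 0.215%, 0.232% and 0.217% in NC and 0.194%, 0.216% and 0.209% in shALKBH3, so the groups overlapped. HSPD1 with HSPE1 was at 0.101%, 0.108% and 0.110% in NC and 0.0922%, 0.103% and 0.0974% in shALKBH3, also with overlap. The DNAJA share was 0.0426% to 0.0454% in NC and 0.0541% to 0.0595% in shALKBH3. Each sum is led by its most abundant members, DNAJA1 in the DNAJA family. The HSP90 (882 to 982 against 898 to 950.0 FPKM), HSP70 (643 to 743 against 514 to 734), HSP110, small heat shock protein, DNAJB and DNAJC sums overlapped.

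**Figure D2:**
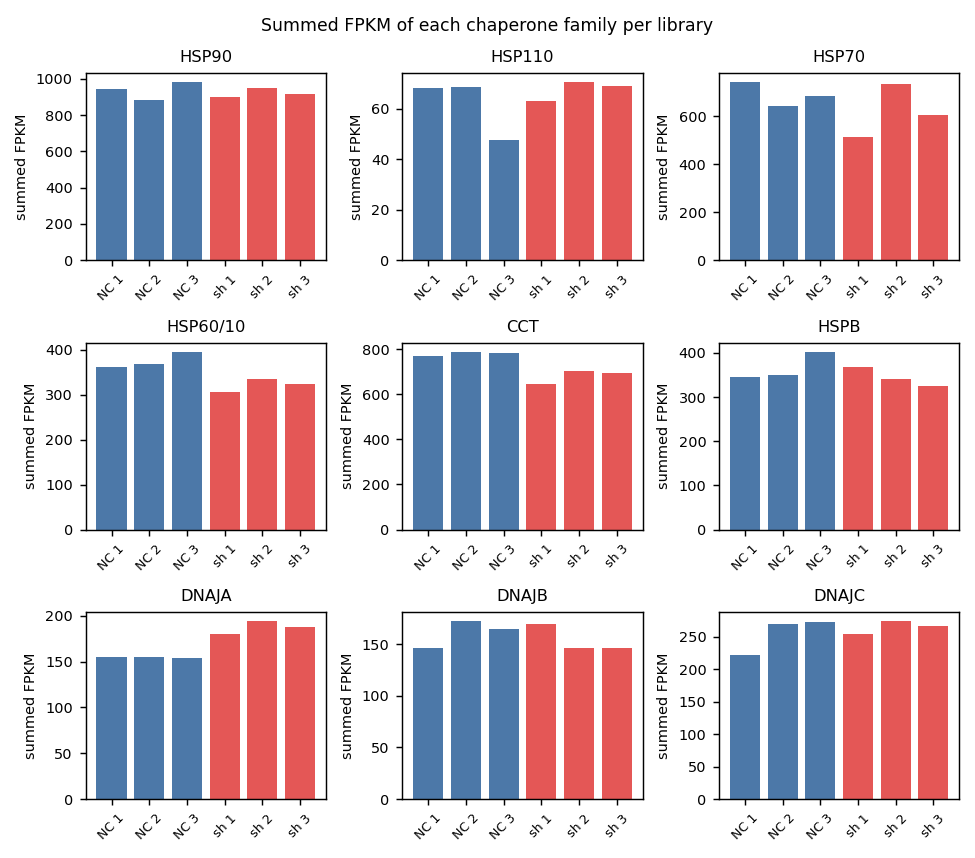
Summed FPKM (vertical axes, starting at 0, each with its own range) of the listed genes of each of the 9 chaperone families in the 6 libraries, NC in blue and shALKBH3 (sh) in red. The CCT and HSP60/10 bars are lower in all 3 knockdown libraries and the DNAJA bars higher, while the other families overlap; as a share of listed FPKM, CCT and HSP60/10 overlap too.

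Heat shock elements are arrays of the unit GAA in alternating orientation, and they are shown here because HSF1 is known to bind them. RefSeq promoter windows on GRCh38.p14, from 250 bases before to 50 bases after each start, were found for 58 of the 65 symbols, 77 windows in all. They were searched on both strands for 3 units without a mismatch, either GAA, TTC and GAA or TTC, GAA and TTC, with any 2 bases (NN) between neighbouring units. Windows of 6 members held it, 7.79% of the 77 member windows, against 0.490% of all 35116 windows of the table. The looser pair GAANNTTC or TTCNNGAA, part of the longer array, was in 27.3% of member windows and 13.5% of all. The arrays found are printed with 12 bases on each side where the window allows, with the matched letters in capitals.
HSP90AB1 (chr6:44247766-44247802, plus strand): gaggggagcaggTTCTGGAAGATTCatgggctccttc
HSP90AB1 (chr6:44247819-44247855, plus strand): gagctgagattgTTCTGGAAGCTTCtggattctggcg
HSP90AA1 (chr14:102087108-102087144, minus strand): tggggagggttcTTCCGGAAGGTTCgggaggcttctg
HSPA8 (chr11:123062167-123062203, minus strand): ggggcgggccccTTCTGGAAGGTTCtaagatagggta
HSPA8 (chr11:123062342-123062378, minus strand): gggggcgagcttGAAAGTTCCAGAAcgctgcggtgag
HSPD1 (chr2:197500056-197500090, minus strand): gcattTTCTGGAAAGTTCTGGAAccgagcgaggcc
DNAJA1 (chr9:33025264-33025300, plus strand): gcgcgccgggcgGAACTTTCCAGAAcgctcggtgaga
DNAJB6 (chr7:157336861-157336897, plus strand): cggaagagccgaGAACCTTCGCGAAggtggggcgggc
In HSPD1 a pair of overlapping matches joins into 18 bases. Relative to the start its window was drawn around, the array of DNAJA1 begins 3 bases after it. The others lie before that start, from 55 bases (HSPA8) to 245 bases (HSPD1). HSP90AB1, HSP90AA1 and HSPD1 also have starts further upstream among the RefSeq windows, and their arrays lie after those. The 6 genes did not share a direction between the groups: the log2 difference was 0.39 in DNAJA1 and 0.13 in HSP90AA1, and -0.11 in HSP90AB1, -0.21 in HSPD1, -0.25 in HSPA8 and -0.34 in DNAJB6, none past the threshold. A match describes letters and not binding, and no match says nothing about the factor.

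HSP90AB1 and HSP90AA1 encode the constitutive and the stress-inducible cytosolic HSP90. HSP90AB1, the most abundant member, was at 586, 590.4 and 583 FPKM in NC replicates 1, 2 and 3 and at 545, 559 and 523 FPKM in shALKBH3. The groups did not overlap, but the difference was small (log2 -0.11, SE 0.06, adjusted p = 0.37) and was 0.045 under quantile normalization. HSP90AA1 was at 359.8, 291 and 398 FPKM in NC and at 352, 391 and 395 FPKM in shALKBH3, so the groups overlapped (log2 0.13, adjusted p = 0.63). The 95% intervals were -0.25 to 0.03 for HSP90AB1 and -0.18 to 0.43 for HSP90AA1, so that both included 0.

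HSPA8, the constitutive HSP70 of the cytosol, was at 560.2, 466 and 502 FPKM in NC replicates 1, 2 and 3. In shALKBH3 it was at 331, 551 and 429 FPKM, so that replicate 1 was the lowest of the 6 libraries and replicate 2 the second highest (log2 -0.25, SE 0.19, adjusted p = 0.53). The difference was -0.06 without shALKBH3 replicate 1 and -0.43 without shALKBH3 replicate 2. Most of the low value of shALKBH3 replicate 1 lay in a single transcript. HSPA8-212 was at 197, 136 and 162 FPKM in NC and at 12.3, 211 and 119 FPKM in shALKBH3, while the main transcript HSPA8-222 stayed between 264 and 328 FPKM in all 6. HSPA8 has 11 listed transcripts, the most of any member, and processed pseudogenes, so its division is uncertain.

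HSPA1A and HSPA1B, the neighbouring stress-inducible HSP70 genes, are near-identical in sequence, and their values are uncertain for that reason. HSPA1A was at 25.4, 25.7 and 25.9 FPKM in NC and at 30.9, 25.3 and 29.3 FPKM in shALKBH3. HSPA1B was at 24.3, 26.6 and 27.9 FPKM in NC and at 32.2, 27.7 and 28.0 FPKM in shALKBH3. Both groups overlapped, and the log2 differences of 0.14 and 0.15 had upper interval bounds of 0.37 and 0.39 (adjusted p = 0.48 and 0.46). A 2-fold induction of these heat-inducible genes thus lay outside their intervals. HSPA9, the mitochondrial HSP70 that pulls imported proteins into the matrix, had 91.5, 82.2 and 90.1 FPKM in NC and 77.1, 87.7 and 78.1 FPKM in shALKBH3 (log2 -0.12, adjusted p = 0.50).

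HSPA13, an HSP70 of the secretory pathway, was at 21.1, 22.1 and 20.2 FPKM in NC and 22.7, 25.2 and 22.5 FPKM in shALKBH3. All 3 knockdown values lay above the controls, by little (log2 0.14, adjusted p = 0.43). HSPA2, a testis-enriched HSP70, was at 3.83, 3.48 and 3.44 FPKM in NC and at 4.13, 0.183 and 2.92 FPKM in shALKBH3, so shALKBH3 replicate 2 stood far below the other 5 libraries. The difference was -0.67 (adjusted p = 0.54) with it and -0.03 without it. HSPA12A and both HSPA14 identifiers had differences between -0.08 and 0.20, with overlapping groups, and HSPA1L, not tested, was between 0.631 and 0.765 FPKM in all 6 libraries.

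Among the HSP110 genes, which encode nucleotide exchange factors of HSP70, HSPA4 was even across libraries. It was at 44.9, 45 and 40.2 FPKM in NC and at 41.2, 45.5 and 41.4 FPKM in shALKBH3 (log2 -0.02, 95% interval -0.23 to 0.18). HSPH1, the heat-inducible member, was at 18.9, 18.4 and 3.32 FPKM in NC and at 17.9, 19.6 and 22.8 FPKM in shALKBH3. NC replicate 3 stood apart: its main transcript, HSPH1-202, was listed at 0 there and lay between 12.4 and 17.8 FPKM in the other 5 libraries. The log2 difference of HSPH1 was 0.82 with all libraries (SE 0.59, adjusted p = 0.51) and 0.09 without NC replicate 3. HSPA4L had a difference of 0.07.

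**Figure D3:**
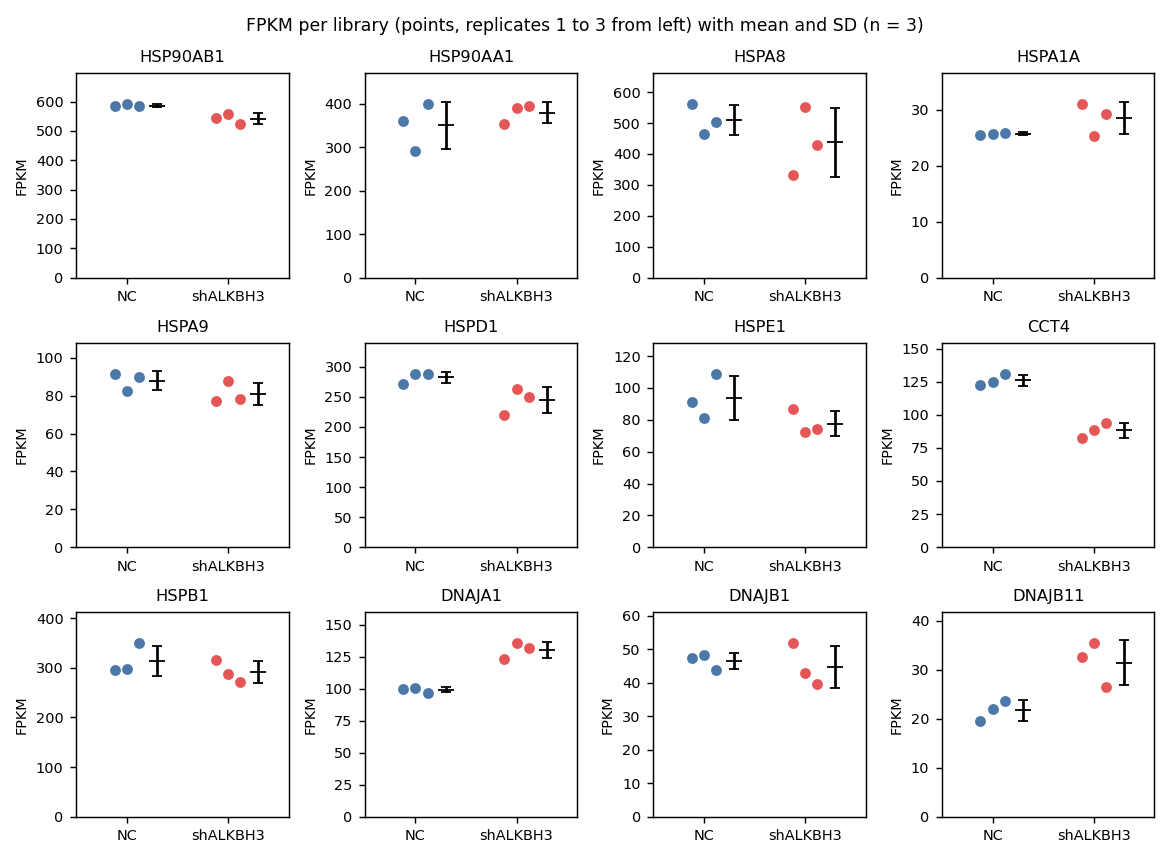
FPKM (vertical axes from 0, each with its own range) of 12 members in NC (blue) and shALKBH3 (red), with points for the 3 libraries of each group in replicate order and a black bar for the mean with its SD. CCT4 lies between 123 and 131 FPKM in NC and between 82.7 and 93.8 FPKM in shALKBH3, DNAJA1 shows the reverse separation, and HSPA8 and HSP90AA1 overlap.

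DNAJA1, a farnesylated J-protein that delivers clients to HSP70, came closest to the threshold from outside. It was at 100.1, 100.2 and 96.8 FPKM in NC replicates 1, 2 and 3 and at 123, 135 and 132 FPKM in shALKBH3. The knockdown mean was 31.4% higher (log2 0.39, SE 0.07, 95% interval 0.23 to 0.55), with no overlap, and the adjusted p was 0.056. DNAJA1 has 1 listed transcript. Its adjusted p passed with a minimum mean of 5 FPKM (adjusted p = 0.044), after rescaling the libraries to one sum (0.042) and after correcting for transcript length and GC (0.022). Its adjusted p was between 0.089 and 0.22 when single libraries were left out.

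The promoter window of DNAJA1 (chr9:33025023-33025322, plus strand of GRCh38.p14) is printed whole, with the array in capitals, beside that of CCT4, because these 2 members have the smallest adjusted p.
DNAJA1: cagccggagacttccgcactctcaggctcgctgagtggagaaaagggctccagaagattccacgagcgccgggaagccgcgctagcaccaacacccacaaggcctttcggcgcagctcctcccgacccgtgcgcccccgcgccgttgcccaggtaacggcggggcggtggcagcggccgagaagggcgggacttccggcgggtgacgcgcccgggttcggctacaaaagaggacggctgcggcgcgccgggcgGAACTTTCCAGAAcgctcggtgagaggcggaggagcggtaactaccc
CCT4: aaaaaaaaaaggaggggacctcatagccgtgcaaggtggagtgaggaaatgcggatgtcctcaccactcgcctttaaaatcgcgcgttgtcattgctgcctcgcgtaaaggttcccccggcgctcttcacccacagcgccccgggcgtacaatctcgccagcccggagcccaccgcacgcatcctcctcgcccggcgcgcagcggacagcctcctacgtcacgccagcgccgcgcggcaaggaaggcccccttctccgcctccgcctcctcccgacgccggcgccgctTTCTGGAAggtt
The CCT4 window is chr2:61888607-61888906 on the minus strand of GRCh38.p14. It held the looser pair once, after the start, in capitals, and no array of 3 units. A further CCT4 window starts 15 bases upstream and held neither. The DNAJA1 window held the looser pair 3 times, not only within the array, and only the array is in capitals there.

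DNAJA2, the close relative of DNAJA1, was at 42.0, 41.1 and 40.4 FPKM in NC and at 44.1, 46.7 and 43.3 FPKM in shALKBH3. These values also did not overlap (log2 0.12, adjusted p = 0.43). DNAJA3, the mitochondrial J-protein that works with HSPA9, was at 13.3, 13.3 and 16.5 FPKM in NC and at 13.2, 12.1 and 11.8 FPKM in shALKBH3 (log2 -0.20, adjusted p = 0.42). The mitochondrial member of the family was therefore on the opposite side of zero from the 2 cytosolic ones.

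Of 8 tested DNAJB genes 0 passed. DNAJB1, the HSP40 that is strongly induced by heat, was at 47.2, 48.4 and 43.7 FPKM in NC and at 51.7, 42.9 and 39.7 FPKM in shALKBH3. The groups overlapped (log2 -0.06, 95% interval -0.34 to 0.22, adjusted p = 0.81). DNAJB11, which serves the HSP70 of the endoplasmic reticulum, was at 19.5, 22.0 and 23.5 FPKM in NC and at 32.6, 35.4 and 26.4 FPKM in shALKBH3. Its knockdown values all lay above the controls (log2 0.51, SE 0.13), with an unadjusted p of 0.0081 and an adjusted p of 0.15. DNAJB2, whose product passes clients to the proteasome, was at 3.52, 4.95 and 5.54 FPKM in NC and at 2.76, 1.46 and 1.90 FPKM in shALKBH3. This was the lowest log2 difference of any member, -0.90 (SE 0.21, unadjusted p = 0.0052, adjusted p = 0.12), at a low level. Its transcript DNAJB2-202 carried the gap, at 2.71, 4.08 and 4.45 FPKM in NC and 1.35, 0.810 and 1.03 FPKM in shALKBH3.

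DNAJB6, which suppresses protein aggregation, was at 32.4, 43.9 and 47.6 FPKM in NC and at 35.6, 29.4 and 31.1 FPKM in shALKBH3. The groups overlapped through NC replicate 1 (log2 -0.34, adjusted p = 0.34). DNAJB4, DNAJB5, DNAJB12 and DNAJB14 had differences between -0.19 and 0.50 and overlapping groups. DNAJB5 was at 4.43 FPKM in shALKBH3 replicate 1 against 0.594 to 2.14 FPKM in the other 5 libraries, and its difference was 0.12 without that library.

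The DNAJC class holds J-proteins with specialised tasks, and 0 of its 26 tested genes passed. The median log2 difference was -0.01, with 12 positive and 14 negative. DNAJC6, which encodes auxilin, the factor that strips clathrin from vesicles with HSPA8, was at 1.76, 3.20 and 2.01 FPKM in NC and 3.81, 4.44 and 3.85 FPKM in shALKBH3. It was the only DNAJC gene with an unadjusted p under 0.05 (0.014, adjusted p = 0.18, log2 0.62) and the only one whose groups did not overlap. Its most abundant transcript alone had a difference of -0.88, so the gene sum and that transcript differed in sign. DNAJC13, an endosomal J-protein, was at 12.1, 13.3 and 9.59 FPKM in NC and at 13.0, 15.9 and 16.0 FPKM in shALKBH3 (log2 0.34, adjusted p = 0.32), with a slight overlap.

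DNAJC7, which links HSP70 and HSP90, was at 7.30, 46.4 and 56.2 FPKM in NC and at 38.0, 44.9 and 50.4 FPKM in shALKBH3. NC replicate 1 was far below the other 5 libraries, and its main transcript, DNAJC7-202, was at 0.865 FPKM there against 15.2 to 54.0 FPKM elsewhere. The difference of DNAJC7 was 0.68 with all libraries and -0.21 without NC replicate 1. DNAJC16 showed a like pattern in another library, with 3.82, 4.50 and 0.0240 FPKM in NC and 2.90, 6.20 and 4.92 FPKM in shALKBH3 (log2 0.87, SE 0.67, adjusted p = 0.53, and 0.09 without NC replicate 3). DNAJC22, with 1 listed transcript, ranged from 1.34 to 5.05 FPKM, with both extremes in shALKBH3.

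The other DNAJC genes had overlapping groups. DNAJC8, a spliceosome component, was at 34.5, 38.0 and 38.1 FPKM in NC and 33.6, 35.9 and 36.5 FPKM in shALKBH3 (log2 -0.06). DNAJC9, a histone chaperone, was between 8.98 and 10.7 FPKM in all 6 libraries (log2 0.05). DNAJC2, which sits on the ribosome with HSPA14, had a difference of -0.18, DNAJC21, a ribosome assembly factor, -0.02, and DNAJC24, a diphthamide synthesis factor, -0.01. Of the J-proteins of the endoplasmic reticulum, DNAJC10, a disulfide reductase, was at 10.4, 11 and 14.0 FPKM in NC and 19.7, 14.7 and 10.2 FPKM in shALKBH3, with overlap (log2 0.28, adjusted p = 0.58). DNAJC1, DNAJC3 and DNAJC18 had differences of 0.05, 0.16 and 0.15, also with overlap. The mitochondrial DNAJC11, DNAJC15, DNAJC19 and DNAJC30 lay between -0.19 and 0.02. DNAJC4, DNAJC14, DNAJC17, DNAJC27 and DNAJC28 lay between -0.21 and 0.08, and none of these groups was separated. DNAJC5, the cysteine string protein of secretory vesicles, had -0.07. The readthrough DNAJC25-GNG10 and DNAJC25 itself had differences of -0.35 and -0.54 with overlapping groups.

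HSPD1 and HSPE1, the mitochondrial chaperonin HSP60 and its lid HSP10, lie head to head on chromosome 2. HSPD1 was at 272, 288 and 287 FPKM in NC replicates 1, 2 and 3 and at 220.4, 263 and 250.5 FPKM in shALKBH3. The groups did not overlap in FPKM as deposited (log2 -0.21, SE 0.08, unadjusted p = 0.046), and the adjusted p was 0.29. After rescaling the libraries to one sum the difference of HSPD1 was -0.12 (limma adjusted p = 0.55). HSPE1 was at 91.0, 81.1 and 108.8 FPKM in NC and at 86.5, 72.3 and 74.2 FPKM in shALKBH3, so the groups overlapped (log2 -0.26, adjusted p = 0.37). Both members of the pair had a negative difference, and neither passed.

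The HSPD1 start whose window holds the array lies 539 bases from the HSPE1 start in the RefSeq table, on the opposite strand. A further HSPD1 start lies nearer, 105 bases from the HSPE1 start, and its window held no array. The window of HSPD1 (chr2:197499791-197500090, minus strand of GRCh38.p14) is printed as the window of this pair that holds the array, with the joined array in capitals.
HSPD1: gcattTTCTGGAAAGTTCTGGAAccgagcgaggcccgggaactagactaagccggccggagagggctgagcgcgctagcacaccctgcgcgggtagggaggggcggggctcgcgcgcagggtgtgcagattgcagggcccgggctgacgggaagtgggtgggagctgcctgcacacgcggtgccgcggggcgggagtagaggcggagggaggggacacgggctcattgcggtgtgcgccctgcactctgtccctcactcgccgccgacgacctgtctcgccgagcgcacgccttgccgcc
The HSPE1 window and a further HSPD1 window of the table held neither the array nor the pair.

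Grouped by compartment after the values had been seen, the members listed as mitochondrial had mostly negative differences, and their list may not be complete. HSPA9, HSPD1, HSPE1, DNAJA3, DNAJC11, DNAJC15, DNAJC19 and DNAJC30 had a median of -0.16, with 6 of 8 negative and 0 past the threshold. The endoplasmic reticulum list held DNAJB11, DNAJB12, DNAJB14, DNAJC1, DNAJC3, DNAJC10, DNAJC16, DNAJC18 and HSPA13. It had a median of 0.15, with 8 of 9 positive and 0 past the threshold. Some of the positive differences were small: DNAJB12 had 0.03 and DNAJC1 0.05, and DNAJC16 had 0.09 without NC replicate 3. That list is not complete: DNAJC14 and DNAJC25, also J-proteins of the endoplasmic reticulum, were counted with the others and had -0.10 and -0.54. The other 48 tested members had a median of -0.06. These medians are descriptions without a test, beside -0.01 over all genes. They were taken without rescaling the libraries to one sum. That rescaling gave 0.07 for the median of all genes, -0.12 for HSPD1 and -0.17 for HSPE1.

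CCT is a ring of 8 different subunits that folds actin and tubulin, and the rule takes 7 of them, CCT6 by 2 genes. CCT4 was at 123, 124 and 131 FPKM in NC replicates 1, 2 and 3 and at 82.7, 88.5 and 93.8 FPKM in shALKBH3. Its mean fell by 29.8%, from 126 ± 4.33 to 88.4 ± 5.59 FPKM (SD, 3 libraries each). The log2 change was -0.51 (SE 0.07, 95% interval -0.69 to -0.33, limma adjusted p = 0.036). Both listed transcripts were lower in all 3 knockdown libraries: CCT4-201 was at 98.6, 102.6 and 103.5 FPKM in NC and at 70.4, 73.9 and 79.6 FPKM in shALKBH3, and CCT4-204 at 24.0, 21.9 and 27.3 and at 12.2, 14.6 and 14.2 FPKM.

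The CCT4 call was close to the threshold. It was lost in 11 of 15 alternatives, with an adjusted p of 0.081 to 0.13 when any 1 library was left out. The log2 difference itself lay between -0.55 and -0.41 throughout. Tested singly in limma, neither CCT4 transcript passed (adjusted p = 0.14 and 0.12).

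**Figure D4:**
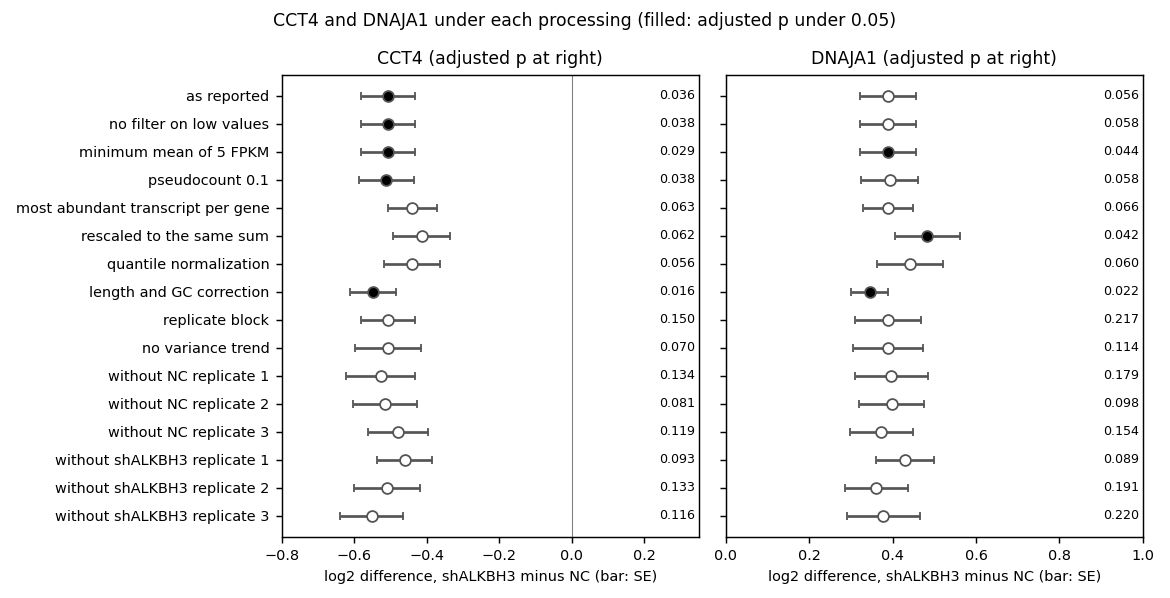
Log2 difference (shALKBH3 minus NC, horizontal axes) of CCT4 and DNAJA1 with its SE under each processing, listed on the vertical axis, with the adjusted p at the right and filled points for values under 0.05. The differences keep their sign throughout, while the points turn between filled and open.

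The other subunits had smaller differences. CCT6A was at 79.96, 80.8 and 77.0 FPKM in NC and at 69.2, 71.0 and 67.5 FPKM in shALKBH3, without overlap (log2 -0.19, unadjusted p = 0.023, adjusted p = 0.22). CCT7 was at 104, 105 and 109 FPKM in NC and 97.6, 92.1 and 100.9 FPKM in shALKBH3, also without overlap (log2 -0.13, adjusted p = 0.38). Both separations are in FPKM as deposited. Over the processings that keep all 6 libraries, the difference ranged from -0.27 to -0.10 in CCT6A and from -0.13 to -0.04 in CCT7. CCT8, the most abundant subunit, was at 149, 162 and 167 FPKM in NC and 131, 134 and 166 FPKM in shALKBH3, with overlap (log2 -0.16, adjusted p = 0.50).

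CCT2 was at 68.4, 72.5 and 75.6 FPKM in NC and 65.3, 79.6 and 65.7 FPKM in shALKBH3 (log2 -0.05, adjusted p = 0.84). CCT3 and CCT5 had differences of -0.20 and -0.12 with overlapping groups, and neither kept its sign in every alternative. CCT3 had 0.81 with the most abundant transcript, and CCT5 reached 0.02 when 1 library was left out. CCT6B, the testis-enriched copy, was between 0.362 and 1.91 FPKM and had 0.08. Of the 8 genes, 7 had a negative difference, 1 passed, and the family median was -0.14, which was -0.05 after rescaling the libraries to one sum and -0.09 under quantile normalization. Whether CCT4 differed more than the other subunits was not tested.

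Among the small heat shock proteins, HSPB1, known as HSP27, was at 295, 297 and 349 FPKM in NC and at 315, 287 and 272 FPKM in shALKBH3. The groups overlapped (log2 -0.11, adjusted p = 0.60), and the sign turned when length and GC were corrected for (0.20). HSPB8, which works with BAG3 in selective autophagy, was at 4.21, 4.11 and 5.03 FPKM in NC and at 6.70, 6.16 and 5.70 FPKM in shALKBH3. It lay higher in all 3 knockdown libraries (log2 0.40, unadjusted p = 0.012) without passing (adjusted p = 0.18). HSPB2 was at 2.16, 3.10 and 2.72 FPKM in NC and 2.24, 1.58 and 1.76 FPKM in shALKBH3 (log2 -0.35, adjusted p = 0.32). HSPB11, which takes part in ciliary transport under the name IFT25, was between 43.3 and 46.3 FPKM in all 6 libraries.

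Transcripts were also tested singly. The 66 genes have 157 listed transcripts, of which 126 had a mean of at least 1 FPKM. In limma 0 rose and 0 fell (smallest adjusted p = 0.12; unadjusted p under 0.05 in 3 higher and 6 lower ones), where 0.35% of 19698 transcripts were called higher and 0.122% lower. Several genes had even sums over uneven transcripts. CCT2-202 was listed at 0, 0 and 32.8 FPKM in the controls, and at 21.6, 25.5 and 0.0667 FPKM in the knockdown libraries, while the CCT2 sum stayed between 65.3 and 79.6 FPKM. HSP90AB1-201 ranged from 27.4 to 181 FPKM and HSP90AB1-203 from 364 to 547 FPKM, with the gene sum between 523 and 590.4 FPKM.

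**Figure D5:**
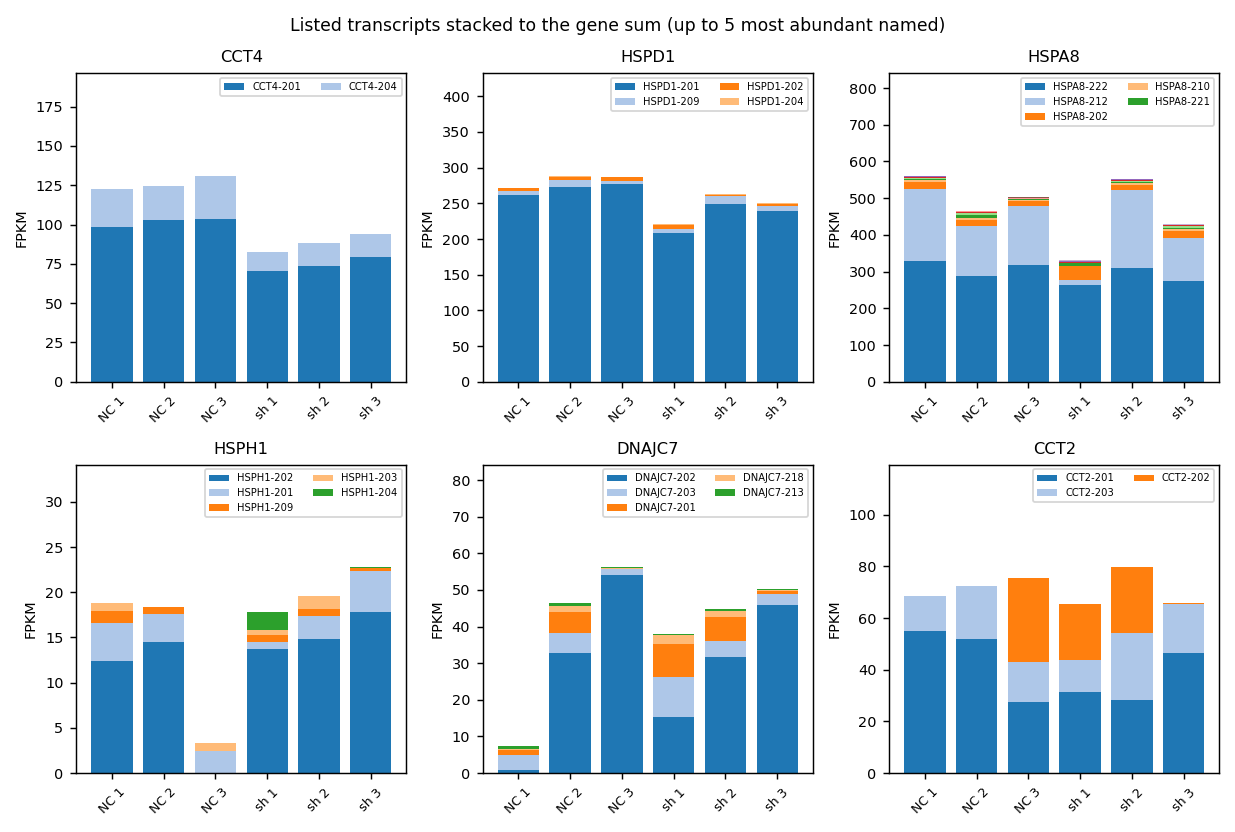
FPKM of the listed transcripts (vertical axes from 0, each with its own range) stacked to the gene sum in the 6 libraries for CCT4, HSPD1, HSPA8, HSPH1, DNAJC7 and CCT2, with up to 5 transcripts named. Both CCT4 transcripts are lower in the 3 shALKBH3 (sh) libraries, while the low sums of HSPH1 in NC replicate 3 and of DNAJC7 in NC replicate 1 come with an almost absent main transcript.

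Partner genes of these chaperones were taken from a list of 53, of which 51 were tested. In all, 0 rose and 1 fell (background 1.28% and 0.477%). The one that fell was TRAP1, the HSP90 of mitochondria, at 54.1, 56.2 and 59.5 FPKM in NC and 39.2, 38.1 and 41.3 FPKM in shALKBH3 (log2 -0.51, SE 0.07, limma adjusted p = 0.036). Its groups did not overlap, but the call was lost in 10 of 15 alternatives, with an adjusted p of 0.081 to 0.13 when 1 library was left out. The most abundant transcript of TRAP1 alone had a difference of -2.56 with a wide SE of 1.16 (limma adjusted p = 0.41), far from that of the gene sum. Of the 11 mitochondrial partners, 9 had a negative difference, with a median of -0.41. Over all genes tested 5376 of 10475 were negative, with a median of -0.01. The 2 positive partners were GRPEL1 (0.07) and GRPEL2 (0.04). The mitochondrial partners were not tested as a set, and these values were taken without rescaling the libraries to one sum. TIMM44, which anchors HSPA9 at the import channel, had a difference of -0.45 (adjusted p = 0.15), and the protease subunit gene CLPP had -1.28 with a wide SE of 0.45 (adjusted p = 0.24). CLPP was at 21.7, 18.6 and 36.1 FPKM in NC and 18.3, 8.60 and 5.22 FPKM in shALKBH3, wide apart within both groups.

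HSF1, the heat shock transcription factor, was at 9.22, 8.20 and 5.77 FPKM in NC and at 8.88, 11.6 and 11.7 FPKM in shALKBH3. The groups overlapped (log2 0.44, SE 0.19, adjusted p = 0.31). Of the 5 genes of the heat shock factor list, HSF1, HSF2 and HSBP1 were tested, and 0 passed. Of 13 HSP90 co-chaperone genes 0 passed, with a median of 0.01, and FKBP5 had the smallest adjusted p among them (log2 0.40, adjusted p = 0.22).

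STUB1, the ubiquitin ligase that binds HSP70 and HSP90, was at 18.5, 21.7 and 18.9 FPKM in NC and at 12.6, 13.6 and 14.2 FPKM in shALKBH3. It did not overlap and missed the threshold (log2 -0.52, adjusted p = 0.072). ST13, an HSP70 cofactor, also lay lower in all 3 knockdown libraries (129 ± 1.41 against 116 ± 4.44 FPKM, SD, log2 -0.14, adjusted p = 0.32). Of 8 BAG-domain and exchange factors 0 passed, with a median of -0.05, and BAG3, itself heat-inducible, had -0.08. Of 9 chaperonin partners 0 passed, with a median of -0.08. TCP1, the CCT subunit that the symbol rule leaves out, was at 80.9, 72.2 and 74.1 FPKM in NC and 68.3, 80.6 and 67.5 FPKM in shALKBH3 (log2 -0.07, adjusted p = 0.72).

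The chaperones of the endoplasmic reticulum that the rule leaves out were represented by 4 genes, and 0 passed. The differences were 0.27 in HSPA5 (adjusted p = 0.088), 0.42 in HSP90B1 (0.058), 0.10 in HYOU1 (0.87) and -0.06 in DNAJB9 (0.82), the last 2 with overlapping groups. HSPA5 was at 280.5, 286 and 280.5 FPKM in NC and 335, 347 and 342 FPKM in shALKBH3, without overlap.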

How the data were processed

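RNA from 3 NC and 3 shALKBH3 libraries was analysed. The authors deposited FPKM per transcript in 1 table per library, per the file headers. The submitters' processing notes name hg19, HTSeq 0.6.0 and DESeq2 without their roles; what computed the FPKM, and from which alignment, is not given in the sources used here. Depth is unknown, so no counting interval is given. Of 28900 listed transcripts, 28796 (99.6%) matched GENCODE release 29, used for names and lengths, and 104 were left out. In every transcript the higher group mean is at least 0.5 FPKM. FPKM were summed per gene, and 10475 genes averaging 1 FPKM or more were tested as log2(FPKM + 1) with limma 3.58.1 in R 4.3.3 (variance trend, two-sided, Benjamini-Hochberg, threshold 0.05). The test was checked on simulated data with independent normal noise of the fitted variances. That check does not cover single libraries that stand apart. Python 3.11.15, pandas 2.3.3 and matplotlib 3.10.9 made tables and plots. Promoters are RefSeq's, on GRCh38.p14, another build than the submitters name.

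The members and lists were chosen with earlier results of these data known. Members named are those past the threshold, the most abundant and the 2 with the smallest adjusted p of each family, and 15 textbook chaperone genes; others were chosen after their values were seen. Alternatives were other filters, pseudocount, scaling, transcript choice, length and GC correction (mgcv), a replicate block, no variance trend and leaving out each library; testing single transcripts and family sums as a share of listed FPKM were added after seeing the data.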

Additional observations from a re-analysis of the deposited data

How the results depend on the processing

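Depth is unknown, 3 libraries a group limit the precision, and transcript FPKM can divide reads unevenly between isoforms and copies. Of 30 genes followed through 15 alternatives, 21 kept the direction of their difference in every one and 9 turned it in at least 1; of 446 values, 14 had the other sign. No member beside CCT4 and DNAJA1 passed in any alternative. CCT4 stayed called (1 lower) with no filter, a minimum of 5 FPKM, a pseudocount of 0.1 and the length and GC correction. The count of lower members was 0 with the most abundant transcript per gene, after rescaling to the same sum, with quantile normalization, with the replicate block, without the variance trend and for single transcripts, and 0 in all 6 leave-one-out fits. The count of higher members was 1, DNAJA1, with a minimum of 5 FPKM, after rescaling and after the length and GC correction. Over all genes, 134 higher and 50 lower became 80 and 25 with the most abundant transcript, and lower calls 24 after rescaling, 83 after the length and GC correction and 27 without the variance trend. Leaving out 1 library gave 39 to 88 higher and 9 to 22 lower. Replicate numbers are shared by the groups, but same-numbered libraries did not deviate together (correlations -0.09, 0.08 and -0.01). Different-numbered libraries gave -0.14 to 0.14. No pairing by number was evident, though such correlations cannot show that same-numbered libraries were prepared apart. With the replicate block, 17 genes were higher and 3 lower, and CCT4 kept -0.51 with an adjusted p of 0.15 in limma.

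Among the 30 genes followed, the sign of HSP90AB1 turned under quantile normalization (0.045). DNAJA3 (0.0068) and DNAJC6 (-0.88) turned with the most abundant transcript, and HSPB1 (0.20) and HSPA4L (-0.14) after the length and GC correction. DNAJB1 (0.033), CCT2 (0.048) and HSPA4 (0.071) turned after rescaling, which moved the median of all genes from -0.01 to 0.07. Members outside the 30 also turned in at least 1 alternative, among them CCT3 (0.81 with the most abundant transcript), CCT5, DNAJC2, DNAJC16, DNAJC19, HSPA12A and HSPA14. Leaving out 1 library gave -0.17 to 0.021 for DNAJB1, -0.14 to 0.0034 for CCT2, -0.074 to 0.0055 for HSPA4 and -0.21 to 1.19 for DNAJC7. Beyond the construction of each alternative, the cause was not tested.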
